A study of Capra hircus with 198 samples.

Results

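The motile cilia genes of the goat were examined across a body-wide RNA atlas. Membership went by name: every feature of the count table whose symbol is DNAH, DNAI, DNAL, DNAAF, CFAP, RSPH or DRC followed by a number and, in some, a letter. This gave 54 of 39734 features, among them 25 CFAP genes and 13 DNAH genes. The gene set was chosen with earlier results of these data known. The rule that set it also named the single ovary libraries and DNAH17 over the body. The atlas holds 1 library from each of 33 tissues of 6 adult female Murciano-Granadina goats, a Spanish dairy breed. The lactating animals carry the numbers 2, 3 and 6, and the dry animals, which gave no milk, the numbers 54, 64 and 73. Each state therefore rests on 3 animals, and the labels give no batch and no stage of the ovarian cycle. Within 1 tissue the p-values measure the spread between these animals. The RNA came from whole pieces of tissue, so fewer ciliated cells and less RNA per ciliated cell cannot be told apart.

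A motile cilium beats because rows of dynein motors slide the microtubule doublets of its core, the axoneme, past each other. The DNAH genes encode the heavy chains that carry the motor, in outer arms and inner arms, and DNAI and DNAL genes encode the smaller chains of the arms. DNAAF proteins assemble the arms in the cytoplasm before transport into the cilium, RSPH proteins build the radial spokes, DRC proteins build the nexin-dynein link between doublets, and CFAP genes encode many further axonemal parts. Multiciliated cells line the airways, the oviduct and the brain ventricles, and the sperm tail, absent from these females, uses the same machinery with some chains of its own.

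Levels are given as CPM, counts divided by the library's total in M. CPM is not divided by transcript length, so levels are compared between tissues and goats and not between genes. The shallowest library held 1.31 M (mega) counts, the middle one 4.63 M and the deepest 8.97 M. A count of 3, the limit taken here for a gene listed at 0, corresponds to 2.29 CPM in the shallowest library and 0.335 CPM in the deepest. By rank correlation with tissue means from the other goats, 175 libraries were closest to their own tissue and 23 were closest to another one. The adenohypophysis and neurohypophysis accounted for 7 of these 23, and the pineal gland for 3. Among the others were the neck skin of goats 3 and 6, closest to diaphragm and to subcutaneous fat, and the mammary gland of goat 54, closest to the ovary. All 6 libraries of the ovary, the lung, the hypothalamus and the kidney medulla were closest to their own tissue. In RefSeq, 16 of the 54 genes overlap another gene, and whether the counting used strand is not given, so reads of such pairs may be shared.

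Summed over the 54 genes, the mean level was highest in the ovary and the lung and lowest in striated muscle. The ovary averaged 605 ± 439 CPM (SD, n = 6 libraries, as for all tissue means below), with a lowest value of 219 and a highest of 1205 CPM. The lung averaged 447 ± 140 CPM. By the median of the 6 libraries the lung was higher, at 458 CPM, and the ovary had 389 CPM. The anterior and posterior pituitary followed at 347 ± 56 CPM and 345 ± 45 CPM, and the pineal gland stood at 316 ± 94 CPM. The left ventricle had 88.9 ± 18.7 CPM, the masseter, a chewing muscle, 94.7 ± 31.7 CPM and the diaphragm 123 ± 28 CPM. Every ovary library lay above every library of these 3 muscles.

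**Figure D1:**
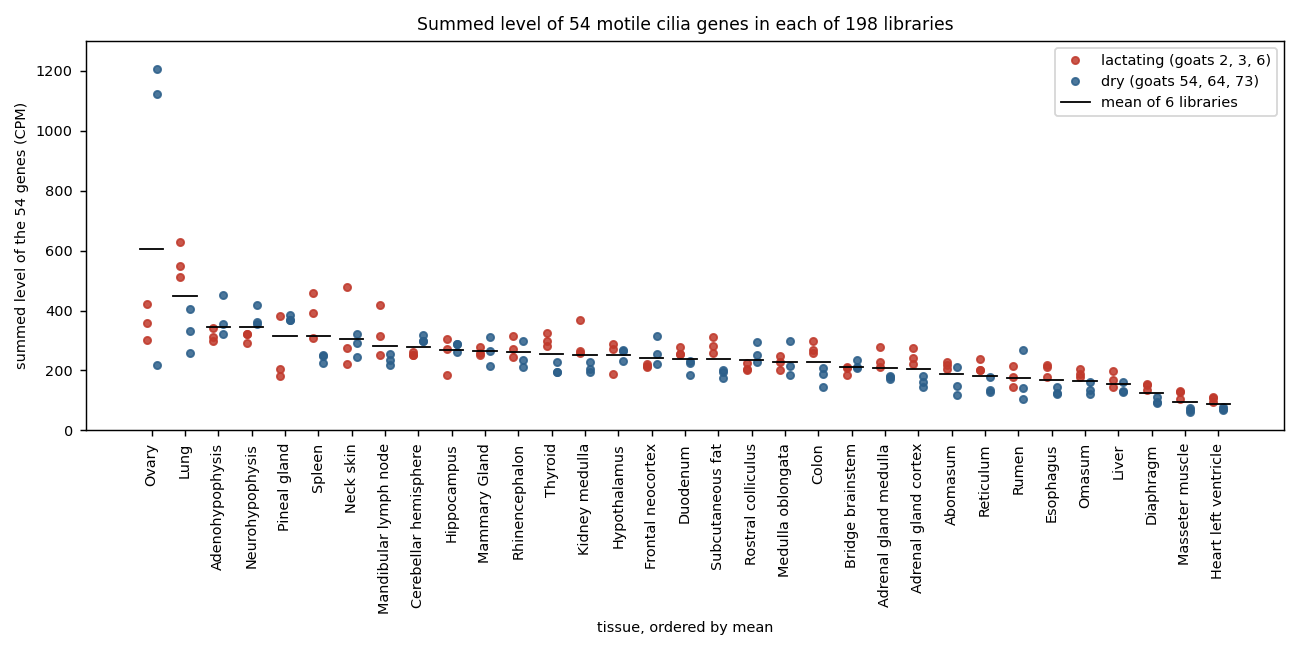
Summed level of the 54 motile cilia genes in CPM (vertical axis) in each library, by tissue in order of the mean (horizontal axis). Red points are lactating goats, blue points dry goats and black bars the mean of 6 libraries; the ovary libraries of 2 dry goats, at 1124 and 1205 CPM, stand above every other point, and the lung libraries of lactating goats come next.

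Few of the genes were expressed everywhere. In 12 of the 54 the mean was at least 1 CPM in every tissue, and 20 averaged under 1 CPM over all libraries. DNAH17, an outer arm heavy chain best known from the sperm tail, held 14.6% of all counts of the 54 genes, and the 5 genes with the most counts held 47.2%. The summed level is therefore weighted toward a handful of genes. Without DNAH17 the ovary averaged 574 ± 451 CPM and the lung 314 ± 88 CPM.

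The highest tissue mean fell in the ovary for 19 genes, in the anterior pituitary for 7, in the lung for 5, and in the posterior pituitary and the cerebellar hemisphere for 4 each. The ovary or the lung was among the top 3 tissues of 33 genes. By role, 4 of 5 outer arm heavy chains, 3 of 7 inner arm heavy chains, 2 of 3 DRC genes, 2 of 5 radial spoke genes and 6 of 25 CFAP genes were highest in the ovary. Of the 4 assembly factors, DNAAF1 alone was. Most of these ovary means rest on the libraries of goats 54 and 64, described below, so the counts do not hold for each ovary.

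The tissue pattern was shared by many of the genes, though not by all. Over the 33 tissue means, 37 of 54 genes had a Pearson correlation of at least 0.5 with the mean scaled profile of the other 53, as a description across tissues from the same 6 goats. The closest were DNAH5, at 0.91, CFAP54, at 0.87, DNAH9, at 0.87, and DNAH6, at 0.85. The farthest were CFAP73, at 0.035, and the assembly factors DNAAF5, at 0.12, and DNAAF2, at 0.21. No gene had a negative value. The share of all features reaching 0.5 was not computed, and the ovary libraries of goats 54 and 64 weigh on this profile.

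**Figure D2:**
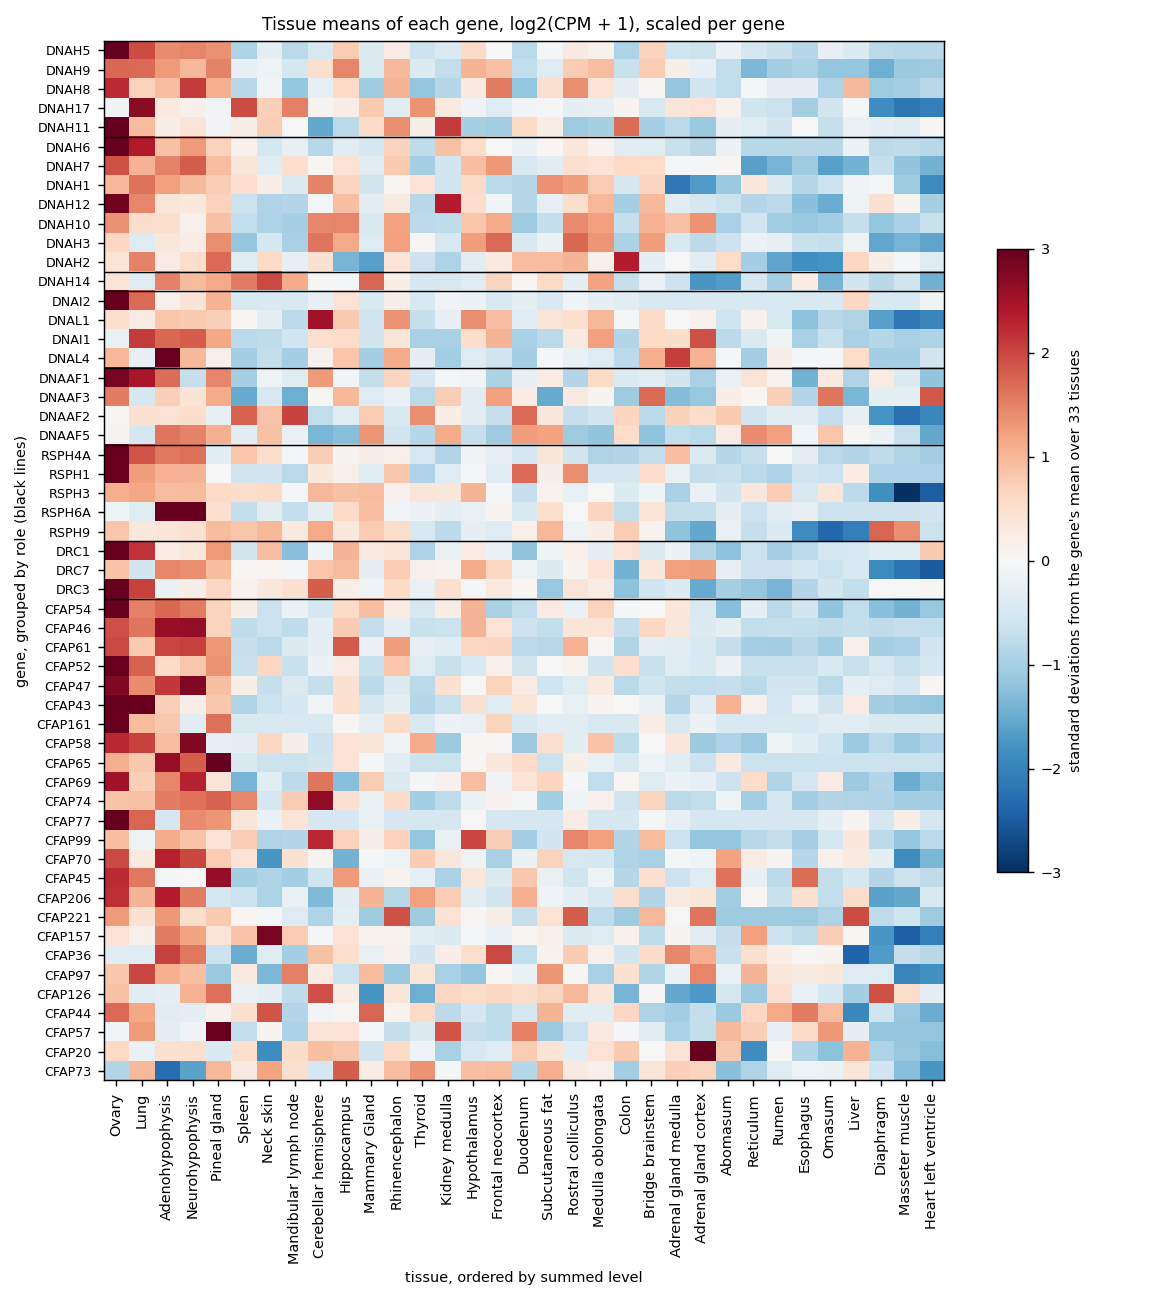
Mean level of each gene (rows, grouped by role between black lines) in each tissue (columns, in order of summed level), as log2(CPM + 1) scaled per gene to standard deviations from its mean over 33 tissues. Dark red in the first columns marks the genes highest in the ovary, lung and pituitary, such as DNAH5 and CFAP54; CFAP57 in the pineal gland and RSPH6A in both pituitary lobes stand out on their own.

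In the ovary, most of the genes were high in 2 of the 6 libraries. Goats 2, 3 and 6, lactating, had summed levels of 357, 422 and 302 CPM, and goats 54, 64 and 73, dry, had 1124, 1205 and 219 CPM. At least 10 CPM was reached by 9, 9 and 8 of the genes in the lactating ovaries, and by 24, 27 and 7 of them in the dry ovaries. The genes listed at 0 numbered 20, 17 and 16 in the lactating ovaries, and 3, 0 and 13 in the dry ovaries. The high libraries were those of goats 54 and 64, while the third dry goat, 73, had the lowest sum of all 6. In 35 of the 54 genes these 2 libraries held the 2 highest values; of all 29558 features with at least 3 counts in an ovary library, 15.6% had this order.

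Of the outer arm heavy chains 3 of 5 followed that order, and of the intermediate and light chains 2 of 4. DNAH5, without which the outer arm is missing in human airway cilia, had 0, 0 and 1.09 CPM in the ovaries of lactating goats 2, 3 and 6, and 147, 149.6 and 2.71 CPM in those of dry goats 54, 64 and 73. DNAH9, a partner heavy chain, had 4.98, 2.86 and 5.25 CPM in the lactating ovaries, and 27.7, 35.5 and 2.71 CPM in the dry ovaries. DNAI2, an intermediate chain, had 0, 0.24 and 0 CPM in the lactating ovaries, and 18.7, 18.7 and 0 CPM in the dry ovaries. In all 3 genes goats 54 and 64 stood apart, and goat 73 lay among or near the lactating goats. DNAI1, the other outer arm intermediate chain, was listed at 0 in 5 ovaries and had 2.25 CPM in that of goat 64.

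Of the 7 inner arm heavy chains, 6 had their 2 highest ovary values in goats 54 and 64. DNAH6 was listed at 0 in all 3 lactating ovaries, and had 78.1, 91.3 and 1.67 CPM in the dry ovaries. DNAH12 had 0.71, 0.48 and 0 CPM in the lactating ovaries, and 78.1, 72.3 and 1.46 CPM in the dry ovaries. DNAH7 had 1.57, 0 and 1.92 CPM in the lactating ovaries, and 67.9, 61.0 and 2.52 CPM in the dry ovaries. DNAH3 and DNAH10 showed the same 2 high libraries at lower levels, and DNAH2 did not.

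The link between doublets and the spokes showed the pattern too. DRC1, a scaffold of the nexin-dynein complex, was listed at 0 in the 3 lactating ovaries and had 24.5, 32.3 and 1.46 CPM in the dry ovaries. RSPH4A, in the spoke head, had 0, 0.24 and 0 CPM in the lactating ovaries, and 10.4, 9.17 and 0.42 CPM in the dry ovaries. RSPH1, another spoke head gene, was listed at 0 in the lactating ovaries and had 11.2, 6.75 and 0.63 CPM in the dry ovaries. In the DRC genes 3 of 3 shared this order, and in the radial spoke genes 2 of 5.

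Among the CFAP genes, 18 of 25 had goats 54 and 64 on top. CFAP54, of the central apparatus, had 2.85, 5.73 and 6.56 CPM in the lactating ovaries, and 119, 153 and 4.59 CPM in the dry ovaries. CFAP43 had 0.24, 0.24 and 0.66 CPM in the lactating ovaries, and 54.3, 56.2 and 5.84 CPM in the dry ovaries. CFAP161, a protein inside the doublet microtubules, was listed at 0 in every ovary but those of goats 54 and 64, which had 13.3 and 14.4 CPM. CFAP52, also within the doublets, had 0, 0.24 and 0 CPM in the lactating ovaries, and 9.35, 11.4 and 0 CPM in the dry ovaries.

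The other 19 genes did not share the order. DNAH11, an outer arm heavy chain close to DNAH9, had 123, 160.1 and 61.4 CPM in the lactating ovaries, and 96.1, 95.3 and 18.3 CPM in the dry ovaries, so the states overlapped and all 6 ovaries held it. DNAH17 had 41.8, 48.4 and 42.0 CPM in the lactating ovaries, and 14.0, 14.5 and 22.5 CPM in the dry ovaries. RSPH9, a spoke head gene, had 15.2, 15.9 and 17.1 CPM in the lactating ovaries, and 1.80, 5.36 and 7.09 CPM in the dry ovaries. In DNAH17 and RSPH9 the lactating ovaries lay above all 3 dry ones, as they did in CFAP157, CFAP73, DNAAF5 and DNAH14. The share of all ovary features with that order was not computed. Of these genes DNAH17 alone was called between the states in the ovary. DNAAF2, a dynein assembly factor, ranged from 27.3 to 39.3 CPM over the 6 ovaries with overlapping states.

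**Figure D3:**
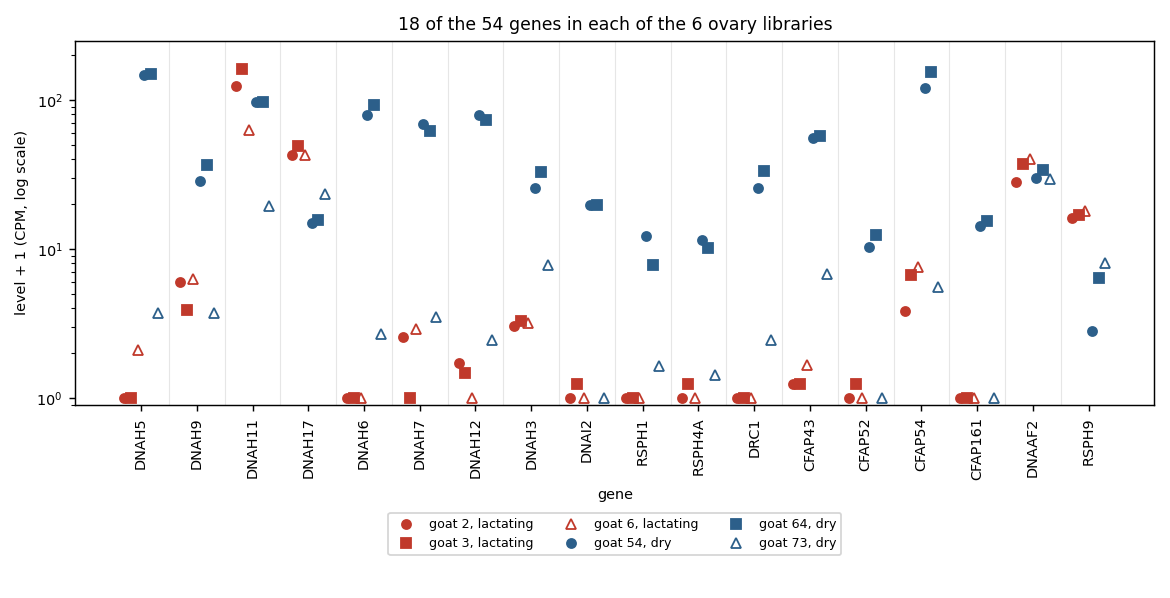
Level + 1 in CPM, on a log axis, of 18 of the 54 genes (horizontal axis) in each of the 6 ovary libraries, 1 symbol per goat, red for lactating and blue for dry. For DNAH5, DNAH6, DNAI2, DRC1 and CFAP161 the filled blue symbols of goats 54 and 64 lie far above the other 4; DNAH11, DNAH17, DNAAF2 and RSPH9 do not show this.

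Genes outside the name rule were high in these 2 libraries as well. Of 10 regulators of multiciliated cells 7 had goats 54 and 64 on top, with summed levels of 75.2, 94.7 and 75.6 CPM in the lactating ovaries, and 106, 115 and 41.3 CPM in the dry ovaries. RFX2, which gave most of that sum in the lactating ovaries, ran the other way. Of 49 other axonemal genes found in the table, 33 had goats 54 and 64 on top, with summed levels of 221, 240 and 202 CPM in the lactating ovaries, and 680, 674 and 147 CPM in the dry ovaries. FOXJ1, the master regulator of motile ciliogenesis, was listed at 0 in the lactating ovaries and had 30.2, 32.3 and 1.67 CPM in the dry ovaries. MCIDAS, which commits a cell to many cilia, was listed at 0 in the lactating ovaries and in goat 73, and had 9.35 and 16.9 CPM in goats 54 and 64. Of 29 genes for intraflagellar transport and the BBSome, which primary cilia also use, 18 had that order. Of 10 genes of cytoplasmic dynein, a motor outside cilia, 3 had it. Among all features with at least 3 counts in an ovary library, the share with that order was 15.6%.

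Markers of other cells differed between the same libraries. Of 8 oviduct epithelium markers found, 6 were highest in goats 54 and 64, against the 15.6% of all features given above. They summed to 11.6, 5.79 and 6.66 CPM in the lactating ovaries, and 149.5, 154 and 46.2 CPM in the dry ovaries. Most of this was EPCAM and KRT8, which many epithelia share, while the more specific PAX8 stayed at or below 1.21 CPM in all 6. The 4 ovarian stroma markers summed to 153, 165 and 163 CPM in the lactating ovaries, and 62.6, 61.1 and 128 CPM in the dry ovaries. The granulosa marker FOXL2 had 4.51, 14.1 and 6.12 CPM in the lactating ovaries, and 0, 0.17 and 0.83 CPM in the dry ovaries. Their part in the levels of the cilia genes was not tested.

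Over the whole transcriptome the 2 libraries resembled each other, with r = 0.95 between their log2(CPM + 1) values across genes. Their r with the other 4 ovaries ranged from 0.77 to 0.83, while the 3 lactating ovaries had 0.94 among themselves. Set against means of goats 2, 3, 6 and 73, the library of goat 54 had a rank correlation of 0.838 with the ovary and 0.836 with the lung, and that of goat 64 had 0.859 and 0.856.

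The test of lactating against dry ovaries was run with edgeR on all features that passed a filter on low counts, and 26 of the 54 genes passed it. A gene high in 2 libraries and near 0 in the others could fail that filter, as DNAH6 and DRC1 did. DNAH5, CFAP43 and DNAH7, at or below 1.92 CPM in each lactating ovary, passed it through the dry ones. Such genes could be called only as lower in lactating ovaries, so the number of calls depends in part on the filter. Of the 26, 8 were called at an adjusted p under 0.05, against 11.7% of the 18083 features tested. CFAP43, CFAP44, CFAP54, DNAH3, DNAH5, DNAH7 and DNAH10 were lower in lactating ovaries and DNAH17 was higher. CFAP43 changed by -6.86 on the log2 scale (SE 0.98, adjusted p = 0.00532, edgeR) and DNAH17 by 1.01 (SE 0.26, adjusted p = 0.0397, edgeR).

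The number of ovary calls changed with each goat left out. Without goat 54 or without goat 64, 3 of the genes were called, in both cases CFAP43, DNAH3 and DNAH5. Without goat 73, the dry goat with low levels, 33 of 45 tested genes were called. The dry group was then goats 54 and 64 alone. Genes at 0 in the lactating ovaries, such as DNAH6 and DRC1, passed the filter through them and could be called only as lower. The share of all features called in that fit is not given here, so the count of 33 is not set against it. Without any 1 of the lactating goats CFAP43 was called and no other gene. All 8 kept their direction under the 10 alternatives, with log2 differences of -7.46 to -6.48 for CFAP43, -5.04 to -3.91 for CFAP54, -3.43 to -2.63 for DNAH10 and 0.87 to 1.36 for DNAH17.

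Against the other 32 tissues of the same goats, 15 of 52 tested genes were called higher in the ovary by at least 1 on the log2 scale, against 4.52% of 30863 features. DNAI2 had the largest called difference, with 6.27 ± 9.62 CPM in the ovary and 0.142 ± 0.114 CPM in the other tissues (log2 difference 5.61, SE 1.27, adjusted p = 0.00594, edgeR). DNAH5 had 50.0 ± 76.1 CPM in the ovary and 1.85 ± 0.56 CPM in the other tissues, a log2 difference of 4.89 (SE 1.35, adjusted p = 0.0175, edgeR). Both SDs exceed the ovary mean, since 4 of the 6 ovaries were near 0.

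With goats paired as a replicate block, 3 of the 15 calls held, in DNAH11, CFAP44 and DNAAF1, and the same 3 were called without goats 54 and 64 and without goat 64 alone. Without goat 54 alone they were called together with CFAP52. With goats 54 and 64 both left out, DNAH5 and DNAH6 had negative differences from the other tissues, of -0.85 and -0.91, and with 1 goat left out both stayed positive. In DNAH11 and CFAP44 the ovary lay above the goat's own other tissues in 6 of 6 goats. CFAP44 had 36.8 ± 17.2 CPM in the ovary and 11.9 ± 2.5 CPM in the other tissues, and it was called under all 12 alternatives. For DNAH11 the ovary had 92.3 ± 48.9 CPM and the other tissues 7.64 ± 0.81 CPM (log2 difference 3.48, SE 0.34, adjusted p = 1.03e-05, with the replicate block 0.000244, edgeR). Tested with limma on mean CPM of the other tissues, DNAH11 was not called (adjusted p = 0.218). The kidney medulla, at 41.7 ± 19.2 CPM, and the colon, at 28.4 ± 3.0 CPM, came next for DNAH11.

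In the lung, where ciliated cells line the bronchi, 14 of 52 tested genes were called higher than in the other 32 tissues, against 7.05% of 31044 features. CFAP43 stood out: it had 6.49, 24.1 and 19.7 CPM in lactating lungs and 15.3, 12.9 and 15.5 CPM in dry lungs, and averaged 15.7 ± 6.0 CPM in the lung and 1.67 ± 0.97 CPM in the other tissues (log2 difference 3.11, SE 0.37, adjusted p = 7.44e-06, edgeR). DNAH6 came next, with 10.1 ± 5.5 CPM in the lung and 1.66 ± 1.70 CPM elsewhere (log2 difference 2.47, SE 0.66, adjusted p = 0.00794, edgeR). DNAI1, CFAP52 and DNAH5 had differences of 1.98, 1.90 and 1.89. Without goat 3, 9 genes were called. With the replicate block 11 were, DNAAF1, DNAH1 and RSPH4A not being among them.

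The lung levels varied among goats. DNAH5 had 3.78, 27.4 and 20.8 CPM in lactating lungs, and 15.1, 3.99 and 3.64 CPM in dry lungs. DNAI2 had 0.27, 4.98 and 0.77 CPM in lactating lungs, and 0.73, 0.47 and 0.24 CPM in dry lungs, and 4.98 CPM was its highest lung value. The 5 airway secretory markers found summed to 6.22, 87.1 and 29.0 CPM in the lactating lungs, and 10.955, 4.70 and 4.85 CPM in the dry lungs. The lung of goat 3 was thus the highest for the airway markers as well as for DNAH5 and DNAI2, and the part of sampled airway in the gene levels was not tested.

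Both lobes of the pituitary carried a wide set of the genes at moderate levels. CFAP46, a central apparatus gene, averaged 10.6 ± 4.2 CPM in the anterior lobe and 10.8 ± 5.4 CPM in the posterior lobe, with 4.57 CPM in the lung. RSPH6A, a spoke gene best known from testis, had 3.28, 2.77 and 3.14 CPM in lactating anterior lobes, and 10.3, 10.8 and 9.24 CPM in dry ones. This difference was not called, nor was any of the genes between the states in either lobe. The posterior lobe mean of RSPH6A was 6.05 ± 3.09 CPM. DNAH7 reached 20.9 ± 9.0 CPM in the posterior lobe, where levels ranged from 10.4 to 29.8 CPM. DRC7 averaged 9.33 ± 2.39 CPM and 8.93 ± 2.79 CPM in the anterior and posterior lobes. In each of these genes the ranges of the lobes overlapped, and 7 pituitary libraries were closer overall to the other lobe's mean than to their own.

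In the hypothalamus, 2 of 51 tested genes were called higher than in the other tissues, against 6.31% of 31086 features, a share below that of all features. They were DNAH3, an inner arm chain, with 20.4 ± 3.4 CPM in the hypothalamus and 9.25 ± 0.65 CPM elsewhere (log2 difference 1.13, SE 0.16, adjusted p = 4.47e-05, edgeR), and CFAP99, at 1.52 ± 0.91 CPM and 0.430 ± 0.098 CPM. With the replicate block DNAH3 was called and CFAP99 was not (adjusted p = 0.0608, edgeR). DNAH3 was a gene of the brain at large, with means of 30.9 ± 5.5 CPM in the rostral colliculus and 30.1 CPM in the frontal neocortex. The 5 genes with the most CPM there were DNAH17, DNAAF2, DNAL1, DNAH3 and CFAP126. The hypothalamus of goat 2 had 6.51 CPM of summed neuron markers, against 33.7 to 84.7 CPM in the other 5.

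The libraries labelled pineal gland fell into unlike sets. TPH1, the first enzyme on the way to melatonin, was at 0, 0 and 0.42 CPM in those of lactating goats, and 125, 57.1 and 100.1 CPM in those of dry goats. The 3 libraries of lactating goats were closest to the rhinencephalon or the hypothalamus. The one of goat 3 held 1369 CPM of TTR, the choroid plexus carrier of thyroxine, against at most 12.1 CPM in the other 5. Results on the pineal gland therefore rest on the dry goats, and a lactating-dry difference there is a difference between these labelled libraries.

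CFAP57, an axonemal scaffold protein, had 0.20, 0.21 and 0 CPM in the libraries of lactating goats labelled pineal, and 26.6, 34.99 and 29.7 CPM in those of dry goats. The groups were far apart and CFAP57 was called lower in lactating goats (log2 difference -7.26, SE 0.53, adjusted p = 0.000366, edgeR). CFAP57 passed the low-count filter through the dry goats, so it could be called only as lower in lactating ones. Its next highest tissue was the kidney medulla at 6.19 ± 7.03 CPM. Over all 6 goats, 6 of 52 tested genes were called higher in the pineal gland than elsewhere, against 5.10% of 31189 features. That fit includes the libraries of lactating goats, which held next to no TPH1. They were CFAP57, CFAP45, CFAP65, CFAP74, DNAH3 and DNAH9, of which DNAH3 and DNAH9 held with the replicate block. In dry goats alone 10 genes were called, among them all 6, and without goat 73 there were 3. The share of all features called in dry goats alone is not given here, so the count of 10 is not set against it.

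The library of goat 3 with high TTR differed from the others in outer arm genes. DNAH5 had 0, 31.9 and 0 CPM in libraries of lactating goats labelled pineal, and 4.98, 2.98 and 1.42 CPM in those of dry goats. DNAI1 had 1.41, 5.22 and 1.05 CPM in those of lactating goats, and 0.95, 0 and 0 CPM in those of dry goats. The part of choroid plexus in these counts was not tested.

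Some of the genes were highest far from ovary, lung and brain. RSPH9 was highest in the diaphragm, at 15.2 ± 10.4 CPM, and the masseter, at 13.1 ± 10.4 CPM. DNAAF2 was highest in the mandibular lymph node and the spleen, at 92.8 ± 25.4 and 80.7 ± 15.8 CPM, with 8.99 CPM in its lowest tissue. CFAP44 was highest in neck skin, at 42.9 ± 23.5 CPM, and the mammary gland, at 37.9 ± 25.5 CPM. In the 4 neck skin libraries closest to neck skin CFAP44 had 36.8 to 75.6 CPM, and in those of goats 3 and 6 it had 13.7 and 20.8 CPM; that of goat 3 held 1458 CPM of skeletal muscle markers. CFAP157 averaged 48.1 ± 38.9 CPM in neck skin, where goat 2 had 119 CPM and the other 5 had 17.6 to 55.7 CPM.

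Lower levels outside the main sites were seen for several more. DNAH2 was highest in the colon, at 5.85 ± 1.36 CPM, and all 6 colon libraries lay between 4.57 and 8.19 CPM. CFAP20, a doublet protein, had 3.48 ± 1.28 CPM in the adrenal cortex, and DNAAF3, an assembly factor, 4.23 ± 1.38 CPM in the left ventricle and 3.83 ± 3.07 CPM in the brainstem bridge. DNAH14 was highest in neck skin, at 2.25 ± 1.03 CPM. CFAP221, of the central apparatus, had its highest mean in the liver at 0.98 ± 1.52 CPM, all of it from goats 64 and 73. DNAL1, an outer arm light chain, was highest in the cerebellar hemisphere, at 40.6 ± 5.9 CPM, and CFAP126, known as Flattop, had 27.5 ± 3.0 CPM there and 27.4 ± 3.1 CPM in the diaphragm.

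Between lactating and dry goats, DNAH17 had the largest called change averaged over the body. Averaged over 33 tissues it had 55.3, 50.9 and 42.0 CPM in lactating goats 2, 3 and 6, and 25.9, 24.4 and 24.3 CPM in dry goats 54, 64 and 73, so the states did not overlap. The log2 difference of the goat means was 0.84 (SE 0.078, adjusted p = 0.000909, limma). It lay between 0.77 and 0.96 and was called under every alternative tried for it.

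The lungs of goats 2, 3 and 6 held 257, 182 and 173 CPM of DNAH17, and those of goats 54, 64 and 73 held 72.1, 54.02 and 61.1 CPM. The spleens held 150.5, 179.7 and 125 CPM in lactating goats, and 24.4, 30.8 and 31.3 CPM in dry goats. In the kidney medulla lactating goats had 86.5, 47.1 and 59.9 CPM, and dry goats 11.3, 15.9 and 6.25 CPM. In each of these tissues every lactating library exceeded every dry one. The log2 differences were 1.54 (SE 0.20) in lung, 2.27 (SE 0.21) in spleen and 2.15 (SE 0.33) in kidney medulla, with adjusted p of 0.00246, 0.00212 and 0.000855 (edgeR).

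**Figure D4:**
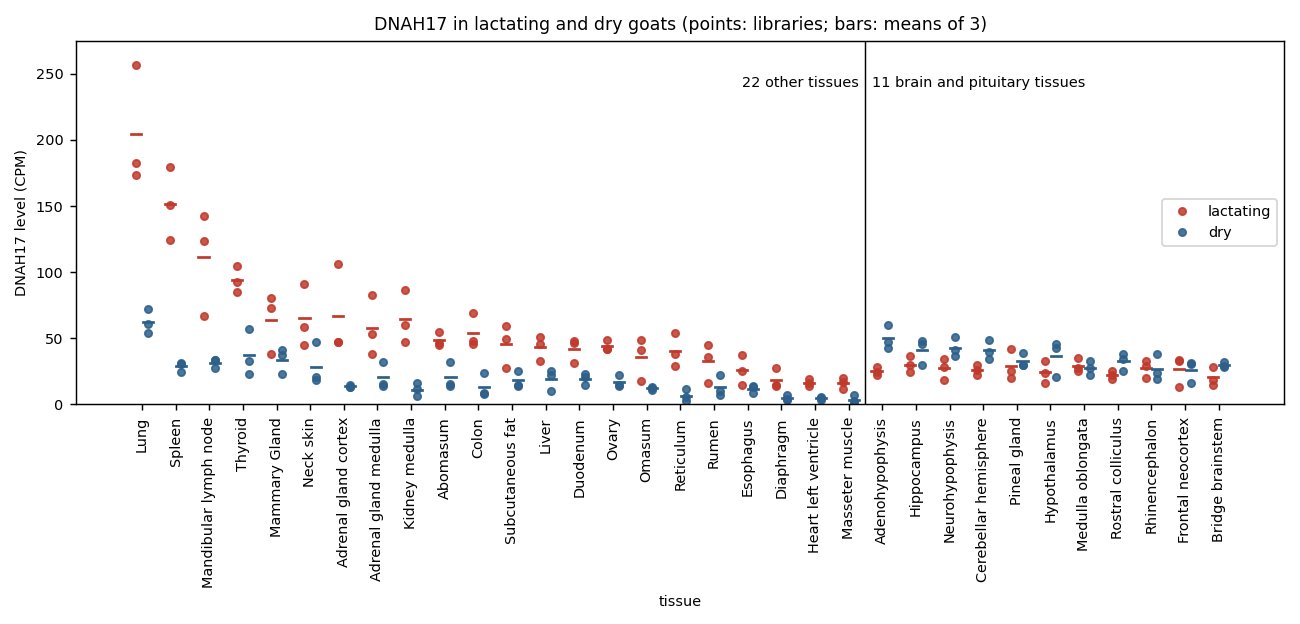
Level of DNAH17 in CPM (vertical axis) in each library by tissue (horizontal axis), with 22 tissues left and 11 brain, pituitary and pineal tissues right of the line; red points are lactating goats, blue points dry goats, short bars the means of 3. Red lies above blue in mean in all 22 tissues on the left, with a gap between all points in 19, and in 3 of the 11 on the right.

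DNAH17 was higher on average in lactating goats in all 22 tissues outside the brain, pituitary and pineal gland, and in 19 of these every lactating library exceeded every dry one. Over all features at 1 CPM or more in those tissues, 15.4% of feature and tissue pairs had that order. In the 11 brain, pituitary and pineal tissues, DNAH17 was lower on average in lactating goats in 8 and was called in none. Every lactating library lay below every dry one in the 2 pituitary lobes and the cerebellar hemisphere. The share of all features with that order there was not computed. The anterior pituitary had 24.5, 28.4 and 22.3 CPM in lactating goats, and 47.2, 59.8 and 42.7 CPM in dry goats.

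The tissue sets were split after this pattern had been seen. Over the 22 tissues lactating goats averaged 61.0 ± 11.04 CPM and dry goats 19.7 ± 0.9 CPM (SD, n = 3 goats each; log2 difference 1.44, SE 0.12, adjusted p = 0.000254, limma). Over the 11 tissues they averaged 26.2 ± 1.8 CPM and 35.2 ± 1.7 CPM (log2 difference -0.34, SE 0.077, adjusted p = 0.0903, limma). The difference between the 2 contrasts was 1.78 (SE 0.18, adjusted p = 0.00283, limma), and it was called without each goat in turn.

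Features around DNAH17 are given because reads may be shared. PGS1, a lipid synthesis gene that overlaps DNAH17 in RefSeq, averaged 2.44 ± 0.03 CPM in lactating goats and 1.66 ± 0.14 CPM in dry goats over the 22 tissues. The lncRNA feature DNAH17-OT1, which the authors class as overlapping, had 136 ± 5 CPM in lactating goats and 87.6 ± 4.3 CPM in dry goats over the same tissues. RFX2, a transcription factor of the ciliogenesis list, averaged 61.5 ± 13.04 CPM in lactating goats and 23.0 ± 1.0 CPM in dry goats there. FOXJ1, with the ovary left out of all 33 tissues, had 0.357 ± 0.251 CPM in lactating goats and 0.323 ± 0.071 CPM in dry goats. Over tissue means, the feature most like DNAH17 was TLDC2, with a Pearson correlation of 0.90 over 33 tissues, followed by the lncRNA features LINC08890 and RHOG-AS1.

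Body-wide, 8 of 51 tested genes were called between the states, against 8.53% of 31306 features. DNAH17, CFAP73, RSPH9 and CFAP157 were higher in lactating goats, and DNAH6, CFAP54, CFAP58 and CFAP36 lower. CFAP73 had 8.77, 8.36 and 9.03 CPM in lactating goats, and 4.57, 5.14 and 5.51 CPM in dry goats, with a log2 difference of 0.74 (SE 0.10, adjusted p = 0.00476, limma). RSPH9 had 8.36, 9.56 and 9.62 CPM in lactating goats, and 6.83, 6.62 and 5.69 CPM in dry goats, with a log2 difference of 0.44 (SE 0.089, adjusted p = 0.0188, limma).

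The ovary took part in the lower calls. DNAH6 averaged 0.41, 1.07 and 0.81 CPM over the tissues of the lactating goats, and 3.77, 4.35 and 1.09 CPM over those of the dry goats. Without the ovary the means were 0.784 ± 0.342 CPM in lactating goats and 1.38 ± 0.29 CPM in dry goats. CFAP54 averaged 4.40 ± 0.20 and 4.57 ± 0.07 CPM without the ovary, against 4.42 ± 0.15 and 7.23 ± 2.30 CPM with it. Leaving the ovary out left 4 calls, DNAH17, CFAP73, RSPH9 and DNAH6, and without goat 64 there were 2, DNAH17 and CFAP73.

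Over the 22 tissues outside brain, pituitary and pineal gland, 15 of the 51 genes were called, against 17.6% of 31306 features. The higher ones numbered 7, led by DNAH17 and CFAP73, and the lower ones 8, led by DNAH6 and DNAH12. These tissues include the ovary, and no fit of them without it was run. DNAH5, among the 8, had 7.96, 7.42 and 0.87 CPM over them in dry goats 54, 64 and 73. Lactating goats 2, 3 and 6 had 0.27, 1.41 and 1.25 CPM. Over all 32 tissues but the ovary, DNAH5 averaged 2.005 ± 0.783 CPM in lactating goats and 1.69 ± 0.33 CPM in dry goats. DNAH12 stayed lower in lactating goats there, at 2.44 ± 0.698 and 3.42 ± 0.389 CPM, as did DNAH6. Over the 11 tissues limma called 0 of 51, against 0.390% of 31306 features, and 14 of the 51 had an unadjusted p under 0.05, as did 4570 of all features. For the difference between the tissue sets, 10 of 51 were called, against 7.01% of 31306 features. CFAP73 averaged higher in lactating goats in all 22 tissues, CFAP157 in 21 and RSPH9 in 17, and these genes were called higher from the same values. DRC3 and DNAH3, not called over the 22 tissues, averaged higher in 19 and 17 of them. The share of all features with such counts was not computed.

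Within single tissues, 678 tests of these genes passed the filter over the 33 tissues, and 25 were called, against 1.90% of all 578253 tests. DNAH17 was called higher in lactating goats in 8 tissues: lung, spleen, kidney medulla, adrenal cortex, left ventricle, colon, diaphragm and ovary. Of the 25 calls, those that held under every alternative tried were DNAH17 in adrenal cortex, kidney medulla, lung and spleen, CFAP57 in kidney medulla and pineal gland, DNAH12 in kidney medulla and CFAP43 in ovary. No alternative dealt with the unlike sets of libraries labelled pineal gland, so the CFAP57 call there stays a difference between labelled libraries. CFAP73 was called higher in the spleen, the liver and the adrenal cortex. The spleens of lactating goats held 11.98, 17.7 and 7.23 CPM of CFAP73 and those of dry goats 2.35, 2.17 and 1.81 CPM, with a log2 difference of 2.39 (SE 0.49, adjusted p = 0.0438, edgeR). In the liver lactating goats had 10.1, 16.8 and 10.997 CPM, and dry goats 1.39, 3.62 and 1.97 CPM (log2 difference 2.38, SE 0.51, adjusted p = 0.0443, edgeR).

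RSPH9 was called in 2 striated muscles. The masseters of lactating goats held 14.1, 20.1 and 30.0 CPM and those of dry goats 4.10, 4.62 and 5.79 CPM, with a log2 difference of 1.59 (SE 0.30, adjusted p = 0.0212, edgeR). In the left ventricle lactating goats had 9.72, 10.2 and 5.60 CPM, and dry goats 2.58, 2.59 and 1.34 CPM (log2 difference 1.73, SE 0.41, adjusted p = 0.0376, edgeR). In the diaphragm lactating goats had 25.6, 21.9 and 25.6 CPM, and dry goats 5.76, 2.11 and 10.5 CPM, which did not overlap and was not called. The cerebellar hemisphere ran the other way, with 11.7, 5.97 and 8.69 CPM in lactating goats, and 13.7, 17.7 and 13.4 CPM in dry goats, also not called.

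In the kidney medulla, 5 of 20 tested genes were called, against 15.1% of 18413 features, so many features of other kinds were called there too. DNAH12 had 0.70, 1.02 and 1.89 CPM in lactating goats, and 51.1, 20.1 and 28.9 CPM in dry goats. Its groups lay far apart, with a log2 difference of -5.08 (SE 0.46, adjusted p = 2.43e-05, edgeR). CFAP57 had 18.1, 8.60 and 8.62 CPM in lactating goats, and 0, 0.94 and 0.89 CPM in dry goats (log2 difference 3.81, SE 0.71, adjusted p = 0.00323, edgeR). DNAH12, at or below 1.89 CPM in each lactating library, passed the low-count filter through the dry ones. CFAP57, at or below 0.94 CPM in each dry library, passed it through the lactating ones. Each could be called only in the direction seen, and these directions were opposite in the same 6 libraries.

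The remaining kidney medulla calls were smaller. CFAP157 changed by 1.66 (SE 0.51, adjusted p = 0.0460, edgeR) and CFAP126 by -0.83 (SE 0.25, adjusted p = 0.0417, edgeR). Other genes moved there as well: the 10 regulators of multiciliated cells summed to 58.7, 58.8 and 59.1 CPM in lactating goats, and 11.1, 30.9 and 12.8 CPM in dry goats, most of it RFX2. Without goat 2 or without goat 6 there were 3 calls in the kidney medulla. The oviduct epithelium markers, several of which kidney tubules share, summed to 134.5, 99.5 and 124 CPM in lactating goats, and 25.9, 39.5 and 26.5 CPM in dry goats. The part of these in the cilia gene levels was not tested.

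**Figure D5:**
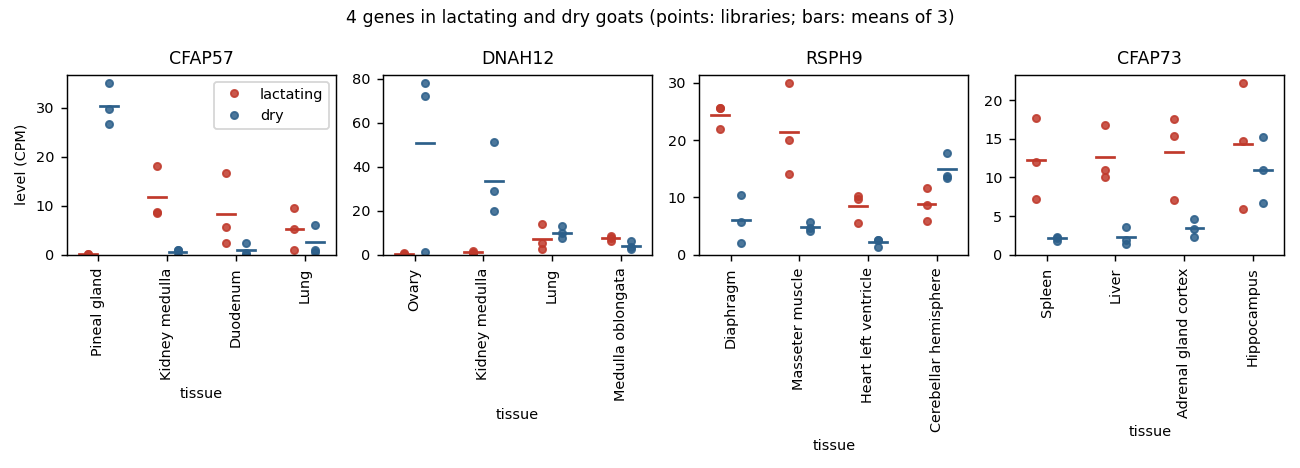
Levels in CPM (vertical axes) of CFAP57, DNAH12, RSPH9 and CFAP73 in 4 tissues each (horizontal axes); red points are lactating goats, blue points dry goats, short bars the means of 3. CFAP57 is higher in dry goats in the libraries labelled pineal gland, which are unlike between the states, and in lactating goats in the kidney medulla. DNAH12 is higher in dry goats in the kidney medulla, RSPH9 is higher in lactating muscles and CFAP73 is higher in the lactating spleen, liver and adrenal cortex.

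The states differ in more than these genes. With counts scaled by library totals alone, the median log2 difference of all features within a tissue ran from -0.31 in the pineal gland to 0.52 in the masseter and passed 0.1 in size in 25 of 33 tissues, whereas TMM scaling, used for the log2 differences above, kept it between -0.045 and 0.070. CPM values as printed carry that shift. DNAH17 kept its direction in its 8 called tissues under both.

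Other genes shared the tissue profile. Of the features outside the name rule with a tissue mean of at least 2 CPM, the 10 most like the mean scaled profile of the 54, by Pearson correlation over 33 tissues, included HYDIN, at 0.93, and SPAG17, at 0.92, both of the central apparatus. CAPS2, at 0.91, LRRIQ1, at 0.91, and ADAM12, at 0.90, followed, with 5 lncRNA features. HYDIN had 0.24, 0.72 and 0.22 CPM in the lactating ovaries, and 35.3, 27.5 and 0.42 CPM in the dry ovaries. SPAG17 was listed at 0 in the lactating ovaries and had 23.7, 26.8 and 1.88 CPM in the dry ovaries. All 10 were highest in the ovary, so goats 54 and 64 weigh on this ranking too.

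The table holds 23 lncRNA features that the authors named after 16 of the 54 genes. RSPH1-AS1, classed as antisense, had 43.9, 52.7 and 38.1 CPM in the lactating ovaries, and 249, 240.1 and 57.9 CPM in the dry ovaries, the order seen for RSPH1. DNAH6-AS1 had 25.6, 28.9 and 28.6 CPM in the lactating ovaries, and 185, 192 and 21.9 CPM in the dry ovaries. DNAH7-OT1 reached 4071 ± 490.4 CPM in the frontal neocortex, where DNAH7 itself was not highest. Without known strand use, reads of such a feature and its host cannot be told apart.

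In the authors' deposited table of tissue specificity, tau runs from 0 for even to 1 for single-tissue expression, and 52 of the 54 genes have a value. The authors' deposited table gives a median of 0.689 for them, against 0.498 for all 33323 features listed. DNAI2 and DNAL4 were at 1 and CFAP52 at 0.985 in the authors' deposited table, and RSPH3, a spoke gene with counts in nearly every library, was lowest at 0.141. The CPM values did not show single-tissue expression for DNAL4. It averaged under 1 CPM in every tissue, with 0.932 CPM in the anterior pituitary and 0.610 CPM in the adrenal medulla. DNAI2 averaged 6.27 ± 9.62 CPM in the ovary and 1.24 CPM in the lung, and CFAP52 3.50 ± 5.37 CPM and 1.11 CPM. Both ovary SDs exceeded the mean.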

How the data were processed

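The deposited count table holds the authors' estimated counts for 39734 features in 198 libraries of strand-specific total RNA; 37.0% of values above 0 are fractional. STAR, StringTie and edgeR are named in the submitters' processing notes; genome build and strand setting are not given in the sources used here. The authors' deposited offsets are natural log values centred per feature and served as an alternative scaling. The authors' deposited tau values are fractions from 0 to 1.

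CPM was computed from library totals. Counts were rounded and tested with edgeR 4.0.16 (quasi-likelihood, TMM, filterByExpr, R 4.3.3), lactating against dry within each tissue, and 1 tissue against each goat's summed other 32 tissues. Goat means of log2 CPM (prior count 2) were tested with limma 3.58.1. A call is a Benjamini-Hochberg adjusted p under 0.05 over all features tested; tissue calls also need a log2 difference of 1. DESeq2 1.42.0 was an alternative. Tissue comparisons pair the same goats, so a fit with goat as replicate block was added. A fit of each kind was tested on simulated counts or values. The limit of 3 counts covers counting error alone. RefSeq assembly ARS1.2 gave overlaps.

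The genes and marker lists were chosen with earlier results of these data known. Named genes were, by rule, the highest and lowest of each role, the highest and the largest called differences in 4 tissues, every called gene, 11 fixed genes, the most similar features, and genes highest outside ovary, lung and brain.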

Additional observations from a re-analysis of the deposited data

Results flagged for a closer look

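In 33 tissues the summed level of the 54 genes was examined for 1 library standing apart from the other 5, which chance gives in about 1 of 20 groups. The anterior pituitary of dry goat 64 had 453 CPM, against 298 to 355 CPM in the other 5. The hippocampus of lactating goat 3 had 185 CPM, against 263 to 306 CPM in the other 5. That library was closest overall to the medulla oblongata, with a rank correlation of 0.886, against 0.868 with the hippocampus. Its neuron markers summed to 14.0 CPM, against 66.5 to 162 CPM in the other 5, and its oligodendrocyte markers to 807 CPM, against 99.9 to 409 CPM; their part in the low sum was not tested. The ovary did not meet this rule because 2 libraries were high together.

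The lactating-dry difference was not the same in the 22 tissues outside brain, pituitary and pineal gland as in the 11 tissues within, by a limma test of the difference on goat means, a split chosen after seeing the data. DNAH17 differed by 1.78 on the log2 scale, higher in lactating goats in the 22 tissues. DNAH1 differed by 1.35, DNAH14 by 1.10, RSPH9 by 0.99, CFAP73 by 0.97, CFAP57 by 0.96, RSPH6A by 0.87 and CFAP157 by 0.87. DNAH12 differed by -0.85 and CFAP206 by -0.91, lower in lactating goats in the 22 tissues relative to the 11. The 22 tissues include the ovary, and this difference was not fitted without it. For CFAP57 the 11 tissues include the pineal gland, where the libraries of lactating goats lack pinealocyte markers: it had 0.136 ± 0.118 CPM in those and 30.4 ± 4.3 CPM in those of dry goats, and over the 11 tissues it averaged 0.647 and 3.74 CPM. The adjusted p of the 10 genes ran from 0.00283 for DNAH17 to 0.0459 for DNAH14. The cause of these differences was not tested.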

How the results depend on the processing

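Member calls within tissues numbered 25, against 42 with DESeq2, 38 with library totals, 60 without the filter and 11 to 45 without 1 goat. Body-wide there were 8, against 4 with edgeR on sums, 4 without the ovary and 2 to 6 without 1 goat. Calls above the other tissues in the lung were 14, and 9 to 17 without 1 goat. In the ovary they were 15, against 3 with the replicate block, 2 with limma on mean CPM, 3 without goats 54 and 64, and 3 to 16 without 1 goat. Hypothalamus had 2, against 1 with the replicate block and 1 with limma. Pineal gland had 6, against 2 with the replicate block, 2 with limma, 10 in dry goats alone, an alternative added after seeing the data, and 3 to 7 without 1 goat. The pairing comes from the goat numbers; the block changed no other call by over 1.5 times. The next comparisons and the fit without goats 54 and 64 were also added after seeing the data. Lactating-dry calls in the ovary were 8, 25 without the filter and 1 to 33 without 1 goat; in kidney medulla 5, 8 with library totals and 3 to 5 without 1 goat. Over 22 tissues they were 15, and 9 to 13 without 1 goat; for the difference of tissue sets 10, and 2 to 7. Without goats 54 and 64 the ovary difference from other tissues became -1.67 for CFAP52, -1.46 for RSPH4A, -1.22 for DRC1, -0.91 for DNAH6, -0.85 for DNAH5, -0.78 for RSPH1 and -0.47 for CFAP69. Of 787 single-gene values 214 lost the call with the sign kept, 156 of them on leaving out 1 goat or goats 54 and 64 together. A further 7 changed sign, all of them in the ovary fit without goats 54 and 64. At a median of 4.63 M counts, genes under about 1 CPM rest on few counts, so a missing difference there is not detectable at this depth.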
